A study of Mus musculus with 6 samples.

Results

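The 43 genes described here act when a cell copies its DNA and when it divides. Of them, 15 are DNA replication genes, whose products act around the start of S phase or at the replication fork, and 28 are mitosis genes, whose products act from G2 to cytokinesis. They were taken by symbol from a list of common cell cycle genes, a choice made with earlier results of these data known. All 43 were found among the 39179 mouse genes listed in the count tables, and all 43 were among the 15980 genes with enough counts to be tested.

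RNA was sequenced from the whole bone marrow of 6 littermate mice. All 6 had been injected with poly(I:C) into the peritoneum on 3 occasions at the age of 3 months, at 10 µg per g of body weight, and the RNA was taken 6 weeks later. The 3 *MxCDX2* mice carried both *RsCDX2*, a knockin at *Rosa26* with the human CDX2 coding sequence behind a stop sequence that Cre recombinase removes, and *Mx1Cre*, a transgene in which the *Mx1* promoter, which responds to interferon, drives Cre. Each control genotype was a single animal: control 1 carried *RsCDX2* alone, control 2 carried *Mx1Cre* alone, and control 3 was wild type. Poly(I:C), a synthetic double-stranded RNA, induces interferon and through it Cre in every cell that responds, and the share of marrow cells that had lost the stop sequence is not given by the counts. Human CDX2 has no identifier of its own in the tables, but reads on mouse *Cdx2* numbered 152, 155 and 183 in *MxCDX2* mice 1 to 3, against 4, 0 and 0 in controls 1 to 3.

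Between 38646101 and 49899650 reads per mouse lay on genes. Values below are counts normalized to a common library size with edgeR's TMM method, fold changes are *MxCDX2* over control on the log2 scale with their SE, and adjusted p-values are those of edgeR's quasi-likelihood test over all 15980 genes (n = 3 against 3). The exact permutation test of a single gene with 3 mice against 3 cannot go below a two-sided p of 0.10. Control 3 stood apart from the other controls. Its summed megakaryocyte markers were 255040 normalized counts against 30348 and 21053 in controls 1 and 2, and its summed promyelocyte markers were 31342 against 168702 and 135634. The counts of called genes in each list, role group and marker list discussed are therefore also given without it, where 13.9% of all genes tested were lower and 13.1% higher at an adjusted p below 0.05. Control 3 was also the lowest control for 15 of 15 replication and 28 of 28 mitosis genes. Leaving it out therefore lowers their fold changes by construction, and calls gained in that fit are no separate support for a decrease.

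A dividing cell licenses its origins of replication when ORC, CDC6 and CDT1 load the ring of 6 MCM proteins, which becomes the replicative helicase with CDC45 and the GINS complex. Cyclin E with CDK2 drives entry into S phase, the PCNA clamp tethers the polymerases, and ribonucleotide reductase and thymidylate synthase supply nucleotides. Cyclin A and cyclin B with CDK1 then drive mitosis, in which the kinetochores, the spindle checkpoint and the motor kinesins handle the chromosomes, and the APC/C ubiquitin ligase, with its activator CDC20 and its conjugating enzyme UBE2C, triggers anaphase. The genes are transcribed in waves. E2F factors act on many replication genes before S phase, and the MuvB complex, with the repressors of the DREAM complex in resting cells or with MYBL2 and FOXM1 in cycling cells, acts on many mitosis genes through the CHR element, often with CCAAT boxes bound by NF-Y nearby. In the marrow, erythroid precursors, B-cell precursors and granulocyte precursors up to the myelocyte divide rapidly, whereas mature neutrophils and reticulocytes do not divide.

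Promoters were searched for motifs that members may share, and no motif searched was in every promoter of either group. RefSeq promoters, 250 bases before to 50 bases after the annotated start (GRCm38.p6), were found for 36 of the 43 genes, 12 replication and 24 mitosis genes; no promoter was found for *Mcm4*, *Gins2*, *Ccne2*, *Ccna2*, *Aurkb*, *Tpx2* and *Kif20a*. They were searched on both strands for the CCAAT box (CCAAT), the CHR element (TTTGAA or TTCGAA) and the E2F site (TTTGGCGC, TTTCGCGC, TTTCCCGC or TTTGCCGC). TTCGAA reads the same on both strands and was counted once, and E2F matches on opposite strands may overlap, as they do in *Mcm6*. The 4 mitosis promoters below are shown because they hold the CCAAT and CHR arrangement in genes that changed (*Ube2c*, *Mki67*, *Cdk1*) and in one that did not pass the test (*Top2a*). *Mcm3* and *Mcm6* are shown for their E2F sites, and *Rrm2* and *Ccne1* because these were the replication genes with the largest decreases. Each sequence runs 5′ to 3′ in the direction of the gene, from 150 bases before to 50 bases after the start, and capitals mark every match to any of the motifs on either strand.
Ube2c: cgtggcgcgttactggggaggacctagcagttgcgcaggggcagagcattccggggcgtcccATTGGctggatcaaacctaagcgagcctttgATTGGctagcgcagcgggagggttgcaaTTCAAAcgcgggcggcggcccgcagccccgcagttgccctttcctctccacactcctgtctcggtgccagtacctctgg
Mki67: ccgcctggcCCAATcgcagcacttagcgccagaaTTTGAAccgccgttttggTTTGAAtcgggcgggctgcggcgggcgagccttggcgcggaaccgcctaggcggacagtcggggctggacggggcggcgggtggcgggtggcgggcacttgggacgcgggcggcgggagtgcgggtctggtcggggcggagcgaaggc
Cdk1: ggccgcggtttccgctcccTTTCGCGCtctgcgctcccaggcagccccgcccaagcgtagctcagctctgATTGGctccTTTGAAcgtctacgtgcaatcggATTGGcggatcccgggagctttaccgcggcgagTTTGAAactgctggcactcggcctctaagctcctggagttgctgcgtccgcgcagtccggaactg
Top2a: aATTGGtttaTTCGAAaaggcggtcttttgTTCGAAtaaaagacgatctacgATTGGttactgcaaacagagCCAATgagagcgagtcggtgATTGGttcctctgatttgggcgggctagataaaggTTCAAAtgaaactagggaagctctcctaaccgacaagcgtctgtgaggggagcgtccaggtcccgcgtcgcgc
Mcm3: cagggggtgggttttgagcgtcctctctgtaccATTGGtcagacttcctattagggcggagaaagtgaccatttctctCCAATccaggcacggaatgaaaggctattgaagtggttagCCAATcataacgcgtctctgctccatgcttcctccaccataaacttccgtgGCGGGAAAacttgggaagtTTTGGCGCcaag
Mcm6: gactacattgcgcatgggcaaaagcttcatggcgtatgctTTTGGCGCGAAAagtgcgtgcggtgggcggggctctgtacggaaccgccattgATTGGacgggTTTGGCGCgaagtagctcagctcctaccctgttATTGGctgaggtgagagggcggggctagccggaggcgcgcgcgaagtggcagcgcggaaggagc
Rrm2: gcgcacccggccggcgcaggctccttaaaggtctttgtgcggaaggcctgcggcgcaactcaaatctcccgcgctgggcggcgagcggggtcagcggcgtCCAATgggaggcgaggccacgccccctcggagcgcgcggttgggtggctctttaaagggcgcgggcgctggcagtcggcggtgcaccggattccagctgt
Ccne1: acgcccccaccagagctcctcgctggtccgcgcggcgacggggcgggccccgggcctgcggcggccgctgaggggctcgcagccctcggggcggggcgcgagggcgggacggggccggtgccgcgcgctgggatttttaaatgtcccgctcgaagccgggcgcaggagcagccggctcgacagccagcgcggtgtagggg

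In GRCm38.p6 these windows are chr2:164769779-164769978 on the plus strand for *Ube2c*, chr7:135716330-135716529 on the minus strand for *Mki67*, chr10:69352863-69353062 on the minus strand for *Cdk1*, chr11:99024140-99024339 on the minus strand for *Top2a*, chr1:20820263-20820462 on the minus strand for *Mcm3*, chr1:128359656-128359855 on the minus strand for *Mcm6*, chr12:24708104-24708303 on the plus strand for *Rrm2*, and chr7:38107441-38107640 on the minus strand for *Ccne1*. With the annotated start as position 1, the CHR element of *Ube2c* begins at position -29 with CCAAT boxes at -57 and -88. The CHR matches of *Mki67* lie farther from the start, at -98 and -116, and it has none within 50 bases of it. *Top2a* has CHR matches at -23, -120 and -140 in this window, and *Mcm3* has its E2F matches downstream of the start, at 20 and 39. The printed windows of *Rrm2* and *Ccne1* hold no E2F match as spelled here, which says only that these letters are not there.

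A CHR element was present in 19 of 24 mitosis promoters (79.2%), against 3 of 12 replication promoters (25%) and 19.2% of all 32851 promoters of the table. Within 50 bases on either side of the start it was found in 18 mitosis promoters (75%), 1 replication promoter (8.33%) and 5.31% of all promoters. The E2F site had the opposite distribution, with 5 of 12 replication promoters (41.7%: *Mcm3*, *Mcm5*, *Mcm6*, *Mcm7* and *Cdc6*), 1 of 24 mitosis promoters (4.17%: *Cdk1*) and 2.26% of all. CCAAT boxes were common in both groups, in 19 mitosis promoters (79.2%) and 9 replication promoters (75%) against 37.4% of all, and 13 and 6 of these promoters held at least 2. Both a CCAAT box and a CHR element stood in 17 mitosis promoters (70.8%), 3 replication promoters (25%) and 7.52% of all. A match is a description of the sequence and does not show that a factor binds there.

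**Figure D1:**
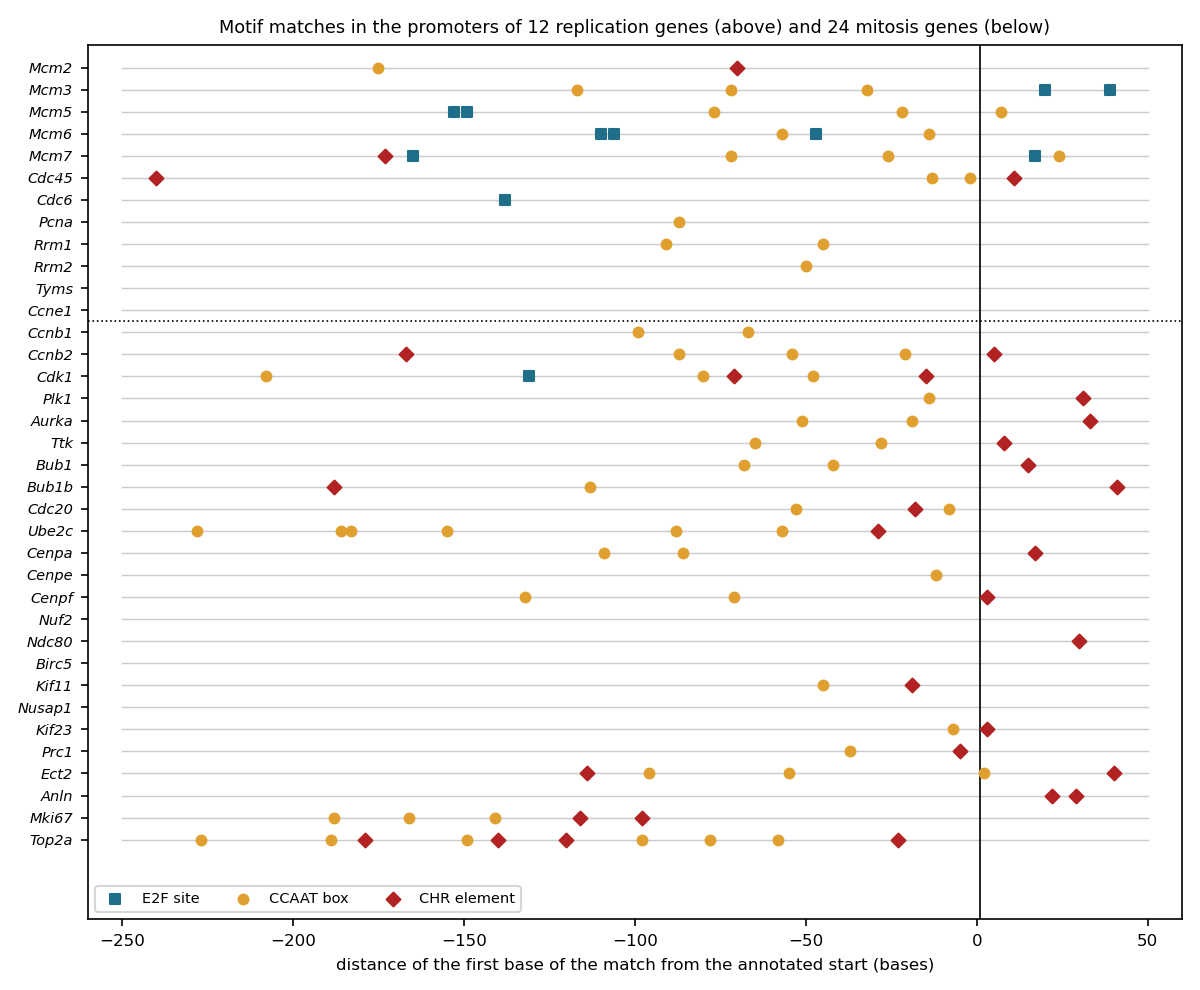
Matches to the 3 motifs in the RefSeq promoters of 12 DNA replication genes (above the dotted line) and 24 mitosis genes (below it), with the distance of the first base of each match from the annotated start on the x axis, in bases, and 1 row per gene. Squares are E2F sites, circles CCAAT boxes and diamonds CHR elements; 18 of the 24 mitosis promoters have a CHR element within 50 bases of the start, which is drawn as a vertical line.

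DNA replication genes were lower or similar in the *MxCDX2* mice, and none passed the test in the other direction. With an adjusted p below 0.05, 4 of the 15 fell: *Ccne1*, *Rrm2*, *Cdc6* and *Mcm2*. By this rule 11.8% of all genes tested were lower in the *MxCDX2* mice and 9.91% were higher. With the threshold of an absolute log2 fold change above 1 added, 2 of the 15 fell, *Ccne1* and *Rrm2*, beside 9.03% of all genes. No replication gene was higher by edgeR, DESeq2 or limma voom, and 0 were higher at an unadjusted p below 0.05, at which 7 were lower (46.7%). At that unadjusted p, 19.4% of all genes tested were lower and 16.6% higher. The median log2 fold change of the 15 genes was -0.39, against 0.00 for all genes tested, whose middle 50% ran from -0.52 to 0.32. All 3 *MxCDX2* mice lay below all 3 controls for 7 of the 15 genes, and 20.7% of all genes were separated in this direction. For 0 of the 15 did they lie above, as they did for 21.4% of all genes. In RNA of a whole tissue, fewer cycling cells and less RNA of these genes per cell cannot be told apart.

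*Ccne1* encodes cyclin E1, which activates CDK2 at the G1/S transition, and lies on chromosome 7, 38097984 to 38107534 (GRCm38). Its normalized counts were 3789, 3522 and 3123 in controls 1 to 3 and 1541, 795 and 1224 in *MxCDX2* mice 1 to 3. The groups did not overlap, and the gap between them was wider than the range of either group. Means were 3478 ± 335 (SD, n = 3) in the controls and 1187 ± 375 in the *MxCDX2* mice, a log2 fold change of -1.55 ± 0.24 (adjusted p = 0.00695). This was the largest decrease among the 43 genes, and it passed an adjusted p of 0.05 with any 1 of the 6 mice left out. *Ccne2*, for the related cyclin E2, had 2469, 2664 and 1746 in the controls and 1626, 929.7 and 1429 in the *MxCDX2* mice, again without overlap. Its log2 fold change of -0.79 ± 0.25 did not pass (adjusted p = 0.0672), but it passed without control 3 (adjusted p = 0.0331). Together the cyclins E stood at 43.6% of the control mean.

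Among the genes of nucleotide supply, *Rrm2*, which encodes the cell cycle-regulated small subunit of ribonucleotide reductase, changed most. It lies on chromosome 12, 24708241 to 24714146. Normalized counts were 19586, 18955 and 12781 in the controls, with control 3 well below the other two, and 8833, 6664 and 8595 in the *MxCDX2* mice. All *MxCDX2* mice were below control 3. The means were 17107 ± 3759.9 (SD, n = 3) in the controls and 8031 ± 1189.7 in the *MxCDX2* mice, and the log2 fold change was -1.09 ± 0.20 (adjusted p = 0.0123). With each mouse left out in turn, it missed 0.05 once, without *MxCDX2* mouse 3 (adjusted p = 0.0505). Its log2 fold change came to -0.97, short of the fold threshold, without control 1, without *MxCDX2* mouse 2 or with scaling by total counts only. *Rrm1*, for the large subunit that RRM2 works with, had 21800.4, 17275 and 13797 in the controls and 13729.9, 11269 and 14692 in the *MxCDX2* mice, and *MxCDX2* mouse 3 exceeded control 3. Its change was smaller, -0.41 ± 0.20, and did not pass (adjusted p = 0.18, 95% interval -0.88 to 0.05); the difference between *Rrm2* and *Rrm1* was not tested. *Tyms*, for thymidylate synthase, had a log2 fold change of -0.33 ± 0.17 (adjusted p = 0.201), and the groups overlapped.

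*Cdc6*, whose product loads the MCM ring onto origins, had 6053, 5399 and 4056 normalized counts in the controls and 3248, 2314 and 2708 in the *MxCDX2* mice. No *MxCDX2* mouse reached the lowest control, and the log2 fold change was -0.91 ± 0.19 (adjusted p = 0.0181). *Pcna*, the sliding clamp, had 15147, 13770.5 and 11897 in the controls and 11168, 9570.4 and 10189 in the *MxCDX2* mice. The groups of *Pcna* were separate too, but by a small gap, and its change of -0.40 ± 0.13 did not pass (adjusted p = 0.0692). Without control 3 it did (adjusted p = 0.0204).

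The 6 MCM genes encode subunits that occur once each in the helicase ring, and 1 of the 6 passed the test, or 3 without control 3. Of all genes tested, 11.8% were lower with all mice. Without control 3 it was 13.9%, in a fit bound to lower the fold changes of these 6 genes. *Mcm2* had 13876, 13578 and 11470.0 in the controls and 10293, 8716 and 9304 in the *MxCDX2* mice, with no overlap and a log2 fold change of -0.46 ± 0.12 (adjusted p = 0.0404). *Mcm7* had 16118, 14773 and 11563 in the controls and 10700.3, 10078 and 11546 in the *MxCDX2* mice. Its highest *MxCDX2* mouse and lowest control were almost level, and the change of -0.39 ± 0.15 did not pass (adjusted p = 0.106). *Mcm4* (11393, 10199.8 and 7835 against 8645, 7782 and 8539; -0.24 ± 0.15, adjusted p = 0.316) overlapped through control 3. *Mcm5* had 18493, 17825 and 13459 in the controls and 16743, 14186 and 16029.6 in the *MxCDX2* mice, so that every *MxCDX2* mouse lay between control 3 and control 2 and the log2 fold change was -0.08 ± 0.16 (adjusted p = 0.74). For *Mcm3* the values were 13948, 13315 and 10340.4 in the controls and 12982, 11926 and 13798 in the *MxCDX2* mice. The log2 fold change of *Mcm3* was 0.04 ± 0.14 (adjusted p = 0.867), with a 95% interval of -0.30 to 0.38. *Mcm6* was the replication gene with the highest fold change, at 17812, 14554 and 13332 in the controls and 16389, 15455 and 17931 in the *MxCDX2* mice, or 0.12 ± 0.14 (adjusted p = 0.586, interval -0.22 to 0.46). For *Mcm3* and *Mcm6* every *MxCDX2* mouse exceeded the wild-type control. Summed over the 6 genes, the *MxCDX2* mean was 90.6% of the control mean, and the differences between MCM genes were not tested.

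The helicase partners *Cdc45* and *Gins2* stayed within the range of the controls. *Cdc45* had 4248, 3829.9 and 2299 in the controls and 4063, 3165 and 4049 in the *MxCDX2* mice (0.12 ± 0.24, adjusted p = 0.758, interval -0.45 to 0.69). Its spread came from control 3, which was lowest of all 6 mice. *Gins2*, a subunit of the GINS complex, had 1146, 1019.8 and 941 in the controls and 1126, 996 and 1134 in the *MxCDX2* mice (0.07 ± 0.13, adjusted p = 0.759).

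**Figure D2:**
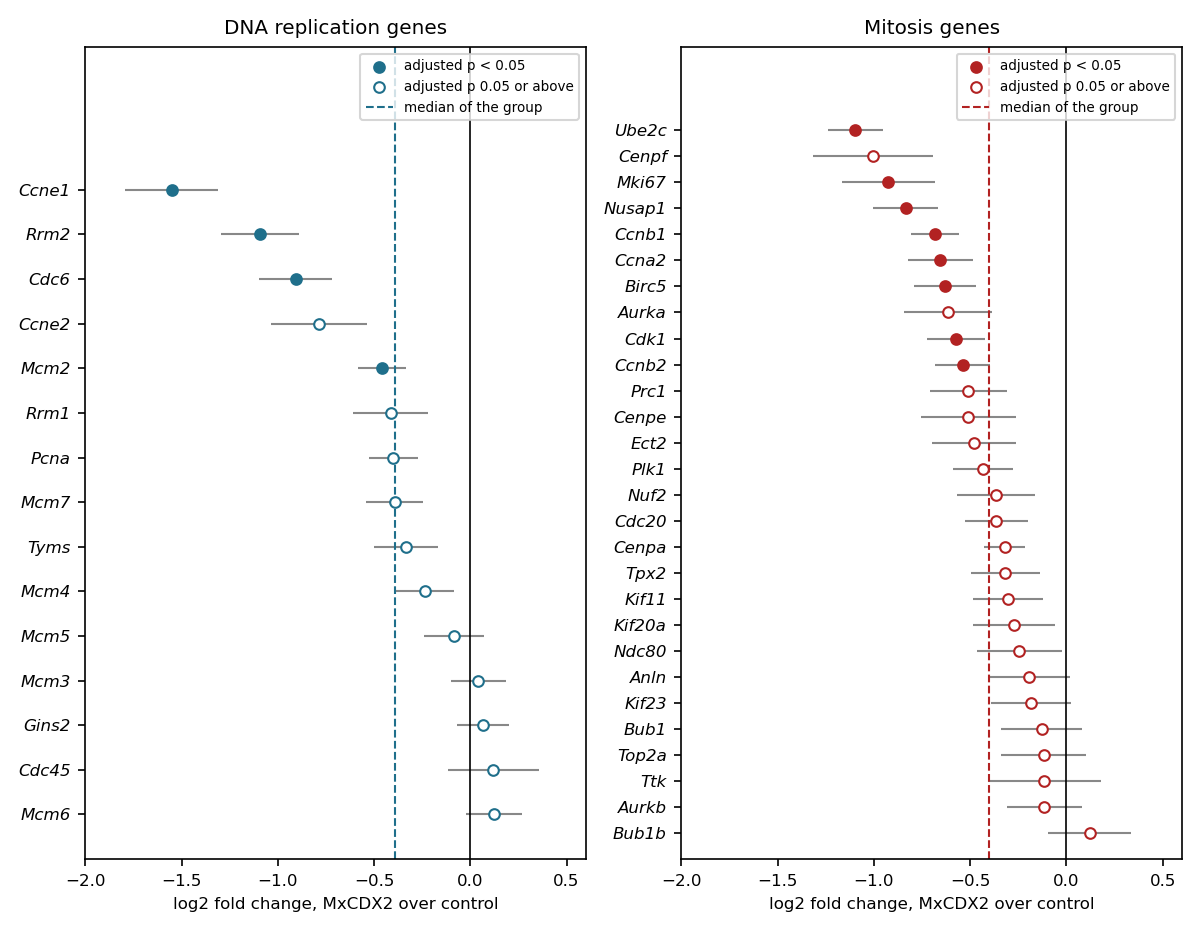
Log2 fold change of *MxCDX2* over control mice (x axis) for each of the 15 DNA replication genes (left) and 28 mitosis genes (right), with its SE as a bar, from 3 mice per group. Filled points passed an adjusted p of 0.05 (4 and 8 genes), open points did not, and the dashed lines are the medians of -0.39 and -0.40.

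Nearly all mitosis genes had a lower mean in the *MxCDX2* mice, but most did not pass the test. Of the 28, 27 had a log2 fold change below 0, as had 49.9% of all genes tested, and *Bub1b* was the exception. With an adjusted p below 0.05, 8 fell: *Ube2c*, *Ccnb1*, *Nusap1*, *Birc5*, *Ccna2*, *Mki67*, *Ccnb2* and *Cdk1*, beside 11.8% of all genes lower by this rule. With the fold threshold added, *Ube2c* alone fell, beside 9.03% of all genes. None was higher by edgeR, DESeq2 or limma voom, and 0 were higher at an unadjusted p below 0.05, at which 13 were lower (46.4%), against the 19.4% of all genes. The median log2 fold change was -0.40, close to that of the replication genes. The groups were separate in the lower direction for 11 of the 28, beside 20.7% of all genes, and in the higher direction for 0.

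*Ube2c*, the ubiquitin-conjugating enzyme of the APC/C, lies on chromosome 2, 164769898 to 164778822 and had the smallest p of the 28. Its normalized counts were 9658, 9040.0 and 8158 in the controls and 4908, 3576 and 4071 in the *MxCDX2* mice. Here control 3 stood close to the other controls and the gap to the *MxCDX2* mice was wider than the range of either group. The means were 8952 ± 754 (SD, n = 3) in the controls and 4185 ± 673 in the *MxCDX2* mice, with a log2 fold change of -1.10 ± 0.14 (adjusted p = 0.00401). It passed an adjusted p of 0.05 with any 1 mouse left out, with fold changes from -1.23 to -0.99, and it came short of the fold threshold without *MxCDX2* mouse 2 and with scaling by total counts only (-0.98). Its partners in the same step did not pass: *Cdc20*, the activator of the APC/C, had a log2 fold change of -0.36 ± 0.16 (adjusted p = 0.159; 0.0168 without control 3), and the spindle checkpoint gene *Bub1* had -0.13 ± 0.21 (adjusted p = 0.707). *Bub1b*, which encodes the checkpoint protein BUBR1, had 8761, 7638 and 4876 in the controls and 8322, 6985 and 7815 in the *MxCDX2* mice. Control 3 was far below the other 5 mice, and the log2 fold change was 0.12 ± 0.22 (adjusted p = 0.733, interval -0.39 to 0.63).

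All 4 genes of the mitotic cyclins and their kinase fell. *Ccnb1*, for cyclin B1, had 5665, 5176 and 4458 in the controls and 3423, 2861 and 3240.0 in the *MxCDX2* mice (-0.68 ± 0.13, adjusted p = 0.0121). *Ccna2*, for cyclin A2, which acts in both S phase and early mitosis, had 11980.0, 9993 and 8216 in the controls and 6963, 5471 and 6712 in the *MxCDX2* mice (-0.66 ± 0.17, adjusted p = 0.036). In both genes the 3 *MxCDX2* mice lay below control 3. *Cdk1* had 9413, 8447 and 6792 in the controls and 6102, 4912 and 5564 in the *MxCDX2* mice (-0.57 ± 0.15, adjusted p = 0.0387). *Ccnb2*, for cyclin B2, had 8443, 7247 and 6380.0 in the controls and 5253, 4421 and 5508 in the *MxCDX2* mice (-0.54 ± 0.14, adjusted p = 0.0383). The 4 together stood at 65.5% of the control mean, against 43.6% for the cyclins E. Of these 4 calls, that of *Ccnb1* held with 5 of the 6 mice left out in turn, and those of *Ccna2*, *Ccnb2* and *Cdk1* held in 1 such fit, that without control 3.

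*Mki67*, the gene of the proliferation marker Ki-67, which coats mitotic chromosomes, held 26.3% of all counts of the mitosis genes in the controls. Its normalized counts were 87787, 67209 and 54541 in controls 1 to 3 and 44003, 29520.4 and 36837 in *MxCDX2* mice 1 to 3, so that the lowest control was above the highest *MxCDX2* mouse but the controls ranged widely. The means were 69846 ± 16779 (SD, n = 3) in the controls and 36787 ± 7242 in the *MxCDX2* mice, a log2 fold change of -0.92 ± 0.24 (adjusted p = 0.0375). *Top2a*, for the topoisomerase that untangles sister chromatids and itself a common proliferation marker, did not pass the test. It had 40836, 33848 and 23582 in the controls and 33803, 27019 and 29641 in the *MxCDX2* mice (-0.12 ± 0.22, adjusted p = 0.741, interval -0.65 to 0.41), and control 3 was the lowest of the 6 mice. The difference between *Mki67* and *Top2a* was not tested. Without *Mki67* the summed mitosis genes stood at 76.0% of the control mean, and with it at 69.9%.

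*Nusap1*, which binds spindle microtubules, had 10073, 8043 and 6898 in the controls and 5231, 4056 and 4733 in the *MxCDX2* mice. The groups were separate, at -0.84 ± 0.17 (adjusted p = 0.0166). *Birc5*, for survivin of the chromosomal passenger complex, had 8847, 8526 and 6424 in the controls and 5849, 4504 and 5023 in the *MxCDX2* mice (-0.63 ± 0.16, adjusted p = 0.0356). *Aurkb*, the kinase of the same complex, did not pass, at -0.11 ± 0.19 (adjusted p = 0.716). Of the spindle motors and microtubule proteins, *Nusap1* passed and *Kif11* and *Tpx2* did not, although *Tpx2* passed without control 3 (-0.46, adjusted p = 0.0285).

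The kinases, the kinetochore and the cytokinesis genes gave no call by edgeR with all 6 mice. Without control 3, 9 of these 14 genes were lower, beside 13.9% of all genes tested. That fit was bound to lower their fold changes, because control 3 was the lowest control for each of them. Of the 4 mitotic kinase genes *Plk1*, *Aurka*, *Aurkb* and *Ttk*, 0 passed by edgeR, DESeq2 or limma voom and 2 had an unadjusted p below 0.05, with log2 fold changes from -0.62 to -0.11. *Ttk*, the checkpoint kinase MPS1, had 2442, 1428 and 1083 in the controls and 1486, 1714 and 1370.2 in the *MxCDX2* mice (-0.12 ± 0.29, adjusted p = 0.817), and control 1 alone was high. Of the 5 centromere and kinetochore genes (*Cenpa*, *Cenpe*, *Cenpf*, *Nuf2*, *Ndc80*) 0 passed by edgeR or limma voom and 2 had an unadjusted p below 0.05, with a range from -1.01 to -0.24. *Cenpf*, a large kinetochore protein gene, had the lowest value of these, -1.01 ± 0.31, with groups that did not overlap, but *MxCDX2* mouse 2 was far below the other *MxCDX2* mice and the adjusted p was 0.0621 by edgeR. By DESeq2 it was 0.0121. The 5 cytokinesis genes (*Kif20a*, *Kif23*, *Prc1*, *Ect2*, *Anln*) ranged from -0.51 to -0.18. None of the 5 passed by the 3 tools, 1 had an unadjusted p below 0.05, and the groups of all 5 overlapped. Without control 3, 2 of the 4 kinase genes were lower, *Plk1* (-0.56, adjusted p = 0.00704) and *Aurka* (-0.80, adjusted p = 0.0198). In that fit 3 of the 5 centromere and kinetochore genes were lower, *Cenpa* (adjusted p = 0.0148), *Cenpf* (0.0387) and *Ndc80* (0.0460). Of the 5 cytokinesis genes 4 were lower, *Kif20a* (adjusted p = 0.0293), *Kif23* (0.0259), *Prc1* (0.0152) and *Ect2* (0.0251), and *Anln* was not (0.0684).

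**Figure D3:**
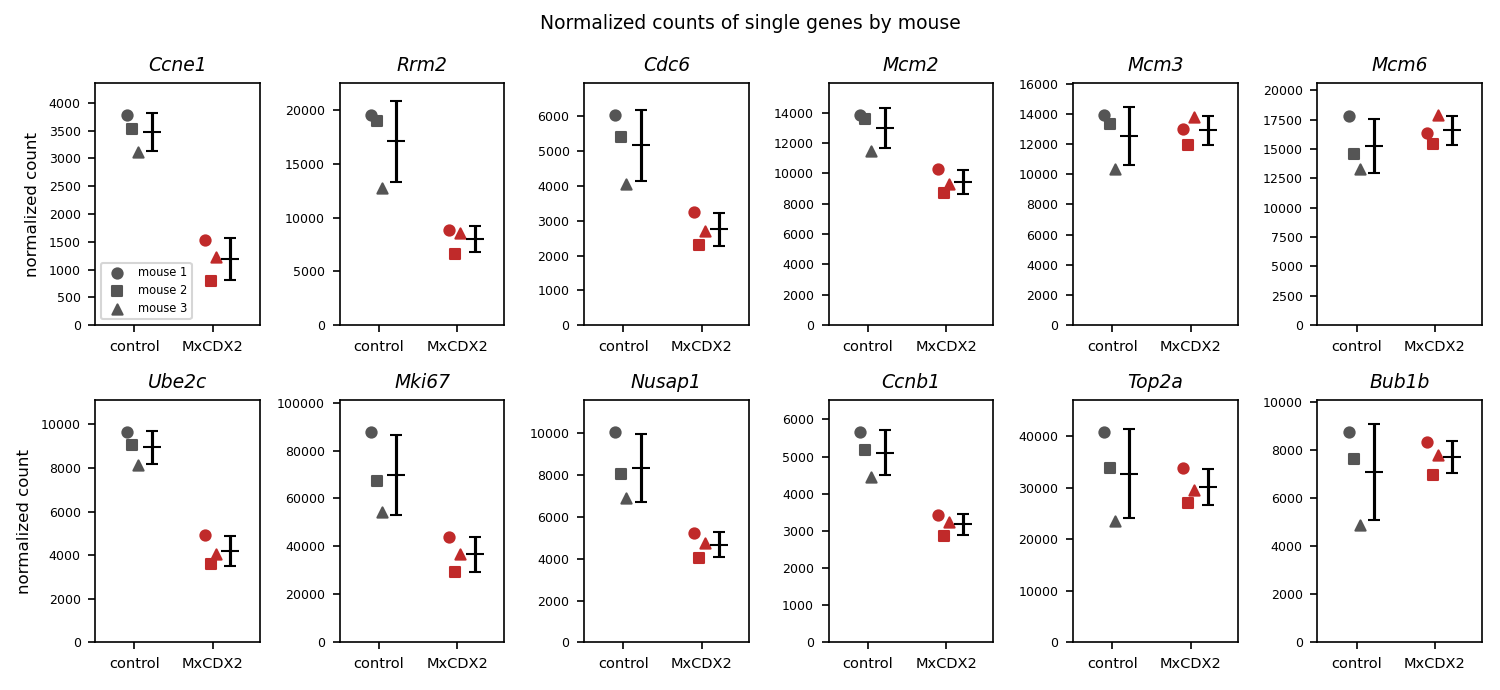
Normalized counts of 6 DNA replication genes (upper row) and 6 mitosis genes (lower row) in each mouse, controls in grey and *MxCDX2* mice in red, with circles, squares and triangles for mice 1, 2 and 3 and the mean with its SD beside them; each y axis starts at 0. *Ccne1*, *Rrm2*, *Ube2c*, *Mki67*, *Cdc6*, *Mcm2*, *Nusap1* and *Ccnb1* do not overlap between groups, whereas *Mcm3*, *Mcm6*, *Top2a* and *Bub1b* do.

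The levels of the genes can be compared only per length, as TPM, a read count divided by the length of the exons and scaled to a fixed total. TPM values share that total with all other transcripts, hemoglobin included, and are therefore given within the controls alone. The highest levels among the 43 were *Mki67* at 369 ± 67.8 TPM, *Rrm2* at 329 ± 63.0 TPM, *Pcna* at 303 ± 22.7 TPM and *Ccnb2* at 256 ± 22.4 TPM (SD, n = 3). These SDs are spreads between mice and do not measure differences between genes within a mouse. In controls 1 to 3 *Mki67* stood above *Pcna*, at 438, 366 and 302 against 317, 315 and 276 TPM. The order of *Rrm2* (355, 375 and 257 TPM) relative to both varied from mouse to mouse, and differences between genes were not tested. The lowest were *Gins2* at 13.5 ± 0.630 TPM, *Ttk* at 17.7 ± 6.51 TPM and *Ndc80* at 18.4 ± 4.59 TPM.

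The order of the mice was nearly the same from gene to gene. Control 1 was the highest control for 14 of the 15 replication genes and 27 of the 28 mitosis genes, and the wild-type control 3 was the lowest control for 15 of 15 and 28 of 28. *MxCDX2* mouse 2 was the lowest of its group for 15 of 15 and 24 of 28. Control 3 was not above the highest *MxCDX2* mouse for 8 replication and 17 mitosis genes, and it was below every *MxCDX2* mouse for 5 and 9. Controls 1 and 2, by contrast, were both above every *MxCDX2* mouse for 11 of 15 and 26 of 28. That count leaves out the lowest control, which makes separation easier. The shares of all genes tested with these orders of mice were not counted, so how unusual the counts are is not known. The genes are not independent of each other in their order of mice, since all were read from the same 6 libraries.

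Summed over the 15 replication genes, normalized counts were 170445, 154589 and 121756 in controls 1 to 3 and 124291, 106508 and 124511 in *MxCDX2* mice 1 to 3, or 79.5% of the control mean. Control 3 lay below *MxCDX2* mice 1 and 3 and above mouse 2. Summed over the 28 mitosis genes they were 323161, 267406 and 204645 in the controls and 206990, 162571 and 186132 in the *MxCDX2* mice, or 69.9%, and control 3 lay below *MxCDX2* mouse 1. Against controls 1 and 2, the median log2 difference of control 3 was -0.43 over the replication genes and -0.58 over the mitosis genes, and that of the *MxCDX2* mice was -0.49 and -0.56. Against control 3, the median difference of the *MxCDX2* mice was -0.06 and -0.03. All genes tested had medians of -0.00, 0.02 and 0.02 in these 3 differences. Those that involve control 3 have no test because it is 1 mouse. The spread among the controls was also the larger one: the coefficient of variation was smaller in the *MxCDX2* mice for 13 of 15 and 26 of 28 genes, with medians of 16.5% and 24.3% in the controls and 8.45% and 11% in the *MxCDX2* mice. The share of all genes with a smaller coefficient in the *MxCDX2* mice was not counted, so this is not shown to be particular to the members.

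**Figure D4:**
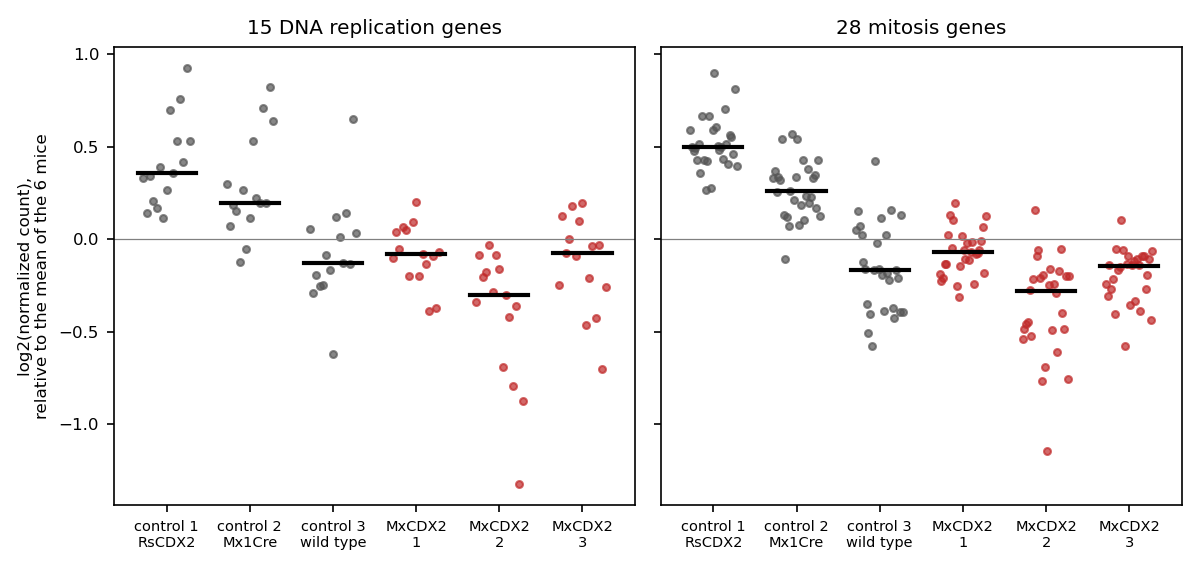
Level of each of the 15 DNA replication genes (left) and 28 mitosis genes (right) in each mouse, as log2 normalized count relative to the gene's mean over the 6 mice; each point is a gene and black bars are medians. In both groups the medians of controls 1 and 2 lie above 0 (0.36 and 0.20 on the left, 0.50 and 0.26 on the right), while the wild-type control 3 lies among the *MxCDX2* mice (-0.13 and -0.17).

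Without control 3, 10 of 15 replication genes and 19 of 28 mitosis genes were lower at an adjusted p below 0.05, where 13.9% of all genes tested were lower. Since control 3 was the lowest control for every member, this fit was bound to lower their fold changes. In it *Mcm4*, *Mcm7*, *Pcna*, *Rrm1*, *Tyms* and *Ccne2* passed as well, and *Mcm3*, *Mcm5*, *Mcm6*, *Cdc45* and *Gins2* did not. With the fold threshold added, 3 replication genes (*Ccne1*, *Rrm2* and *Cdc6*) and 3 mitosis genes (*Ube2c*, *Cenpf* and *Mki67*) were lower, beside 9.16% of all genes. Leaving out another mouse reduced both counts. Without control 1 or control 2, 2 replication and 3 mitosis genes were lower, beside 8.07% and 9.03% of all genes. Without *MxCDX2* mouse 1 the counts were 3 and 4 (8.08% of all genes), without mouse 2 they were 2 and 2 (6.61%), and without mouse 3 they were 1 and 1 (4.78%). In the last fit the members' shares, 6.67% and 3.57%, were close to that of all genes. *Ccne1* and *Ube2c* passed in 6 of the 6 such fits, *Rrm2* and *Ccnb1* in 5, and *Nusap1* in 4. *Cdc6* and *Birc5* passed in 2, and *Mcm2*, *Ccna2*, *Ccnb2*, *Cdk1* and *Mki67* in 1, that without control 3.

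Motif content and change can be set side by side, without a test. Of all genes tested, 11.8% fell with all 6 mice and 13.9% were lower without control 3. The 19 mitosis genes with a CHR element had a median log2 fold change of -0.36, and 4 of them fell (*Ube2c*, *Mki67*, *Ccnb2* and *Cdk1*). The 5 without one, *Ccnb1*, *Birc5*, *Nusap1*, *Cenpe* and *Nuf2*, had a median of -0.63, and 3 of them fell. The 5 replication genes with an E2F site had a median of -0.08, with 1 that fell (*Cdc6*), and the 7 without had -0.41, with 3 that fell. Without control 3, 13 of the 19 mitosis genes with a CHR element and 3 of the 5 without were lower, and 2 of the 5 replication genes with an E2F site and 6 of the 7 without. *Ccne1* and *Rrm2*, with the largest decreases among replication genes, had no E2F match in the window searched, while 4 of the 5 MCM genes with a promoter did. A missing match says only that the letters searched are not there. Most replication genes with an E2F match are MCM genes, so motif and gene family cannot be told apart here.

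Further genes of the same pathways were counted by the same rule, beside 11.8% of all genes lower and 9.91% higher. Of 52 other replication genes, 7 fell (13.5%, near the share of all genes) and 2 rose at an adjusted p below 0.05, with a median log2 fold change of -0.17. Without control 3, 15 were lower and 2 higher, beside 13.9% and 13.1% of all genes. *Orc1*, for the largest subunit of the origin recognition complex, had 1199, 1115 and 889 in the controls and 419, 424 and 421 in the *MxCDX2* mice (-1.34 ± 0.16, adjusted p = 0.00323). Of the other 5 subunits of the complex, *Orc2*, *Orc5* and *Orc6* fell (*Orc6*: -0.61 ± 0.10, adjusted p = 0.00905), and *Orc3* (0.05 ± 0.13, adjusted p = 0.806) and *Orc4* (-0.05 ± 0.12, adjusted p = 0.828) did not pass. *Chaf1b*, of the chromatin assembly factor CAF-1, had a log2 fold change of -0.75 ± 0.10 (adjusted p = 0.00412). The 2 genes that rose were *Dna2*, a nuclease and helicase of Okazaki fragments, at 3673, 4049 and 2563 in the controls and 5942, 7356 and 6576 in the *MxCDX2* mice (0.95 ± 0.19, adjusted p = 0.0147), and *Dut*, a dUTPase (0.44 ± 0.10, adjusted p = 0.0282). The 24 genes of polymerases and fork proteins had a median of -0.15, with 1 that fell and 1 that rose, or 3 and 1 without control 3.

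Of 67 other mitosis genes, 14 fell (20.9%, against 11.8% of all genes) and 0 rose by edgeR, with a median of -0.33. At an unadjusted p below 0.05, 30 were lower and 2 were higher, beside 19.4% and 16.6% of all genes. DESeq2 and limma voom called 1 and 0 higher. Without control 3, 35 were lower and 2 higher, beside 13.9% and 13.1% of all genes. *Cdc25b*, the phosphatase that activates CDK1, had the largest change, 11024, 14429.8 and 10697 in the controls against 4472, 2505 and 3345 in the *MxCDX2* mice (-1.81 ± 0.24, adjusted p = 0.00401). Its lowest control was above the highest *MxCDX2* mouse by more than the range of either group, and control 3 was level with control 1. *Cenpk* of the inner kinetochore (-0.97 ± 0.15, adjusted p = 0.00743), the kinesin *Kif18a* (-1.07 ± 0.19, adjusted p = 0.01) and the condensin subunit *Ncapg2* (-0.72 ± 0.14, adjusted p = 0.0161) fell as well. The 2 that were higher without passing were the cytokinesis genes *Racgap1* (0.53 ± 0.18, adjusted p = 0.0832) and *Cep55* (0.68 ± 0.23, adjusted p = 0.0803), which were singled out after their values were seen. They are the 2 that passed as higher without control 3 (adjusted p = 0.0438 and 0.0169).

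The regulators of both waves were measured too. The 20 genes were those for E2F factors, their DP partners, pocket proteins and the MuvB, MYBL2 and FOXM1 proteins. Of these 20, 4 fell (20%, against 11.8% of all genes) and 1 rose. Without control 3, 7 fell and 1 rose, beside 13.9% and 13.1% of all genes. *Tfdp2*, for the dimer partner DP2, had 17746, 17939 and 12858 in the controls and 4163, 1996 and 2668 in the *MxCDX2* mice (-2.46 ± 0.30, adjusted p = 0.00318). *E2f4*, the main E2F of the DREAM complex (-1.01 ± 0.14, adjusted p = 0.00507), the activator *E2f2* (-0.79 ± 0.17, adjusted p = 0.0184) and the retinoblastoma gene *Rb1* (-1.09 ± 0.18, adjusted p = 0.00815) fell. *Rbl2*, for the pocket protein p130 of DREAM, rose by a small amount (0.31 ± 0.08, adjusted p = 0.0384), a call that limma voom did not make. Of the 7 genes of MuvB, MYBL2 and FOXM1, 0 passed by edgeR or limma voom and 1 by DESeq2 and at an unadjusted p below 0.05, and their median was 0.02. Without control 3, 1 of the 7 was lower, *Mybl2* (-0.75, adjusted p = 0.00371). These genes include both activators and repressors, so their counts have no common direction for the cell cycle.

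Whole marrow mixes many cell types, and markers of several of them had larger log2 fold changes than the cell cycle genes. Of all genes tested, 11.8% fell and 9.91% rose, or 13.9% and 13.1% without control 3. Erythroid markers fell in 9 of 9, from a summed 1554280 to 1910001 normalized counts in the controls to 49486 to 185109 in the *MxCDX2* mice, or 6.28% of the control mean. B lineage markers fell in 3 of 8, and their sum was 17153 to 54196 in the controls and 4525 to 15784 in the *MxCDX2* mice. Both lineages hold rapidly dividing precursors, as does the granulocyte lineage. Monocyte markers rose in 5 of 7, from a sum of 54801 to 69674 in the controls to 207322 to 253024 in the *MxCDX2* mice. Promyelocyte markers summed to 31342 to 168702 in the controls and 172575 to 181804 in the *MxCDX2* mice, and 1 of 4, *Ctsg*, rose. Mature neutrophil markers, among which the granule genes *Ltf*, *Camp*, *Ngp* and *Mmp8* are already transcribed in precursors, fell in 6 of 8, from 1850134 to 2935077 in the controls to 780754 to 1073716 in the *MxCDX2* mice. Megakaryocyte markers fell in 1 of 5 (21053 to 255040 in the controls, 9710 to 13441 in the *MxCDX2* mice) and stromal markers in 2 of 5 (14015 to 51933 and 6992 to 14622). T and NK markers summed to 4297 to 6212 in the controls and 1980 to 4234 in the *MxCDX2* mice. Of these 6 genes 0 fell by edgeR, 2 by DESeq2 and by limma voom, and 2 at an unadjusted p below 0.05. Without control 3, the calls were 9 of 9 erythroid, 6 of 8 B lineage, 8 of 8 mature neutrophil and 4 of 5 megakaryocyte markers lower, 5 of 7 monocyte markers higher, and 0 of 5 stromal and 0 of 6 T and NK markers in either direction. Of the 4 promyelocyte markers 1 was then higher, *Ctsg*, and 1 lower, *Elane* (-0.77, adjusted p = 0.0267). The megakaryocyte sum of the *MxCDX2* mice was 11.8% of the mean of all controls but 47.0% of that of controls 1 and 2, and the promyelocyte sum was 157% and 115%. All markers tested had counts in all 6 mice. Among the controls, control 3 was lowest for the B lineage, promyelocyte, mature neutrophil and monocyte sums. It was not the lowest control for the erythroid, T and NK, megakaryocyte and stromal sums. *MxCDX2* mouse 2 was the lowest of the 6 mice for the erythroid, B lineage, megakaryocyte and stromal sums. The part of these cells in the levels of the replication and mitosis genes was not tested.

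**Figure D5:**
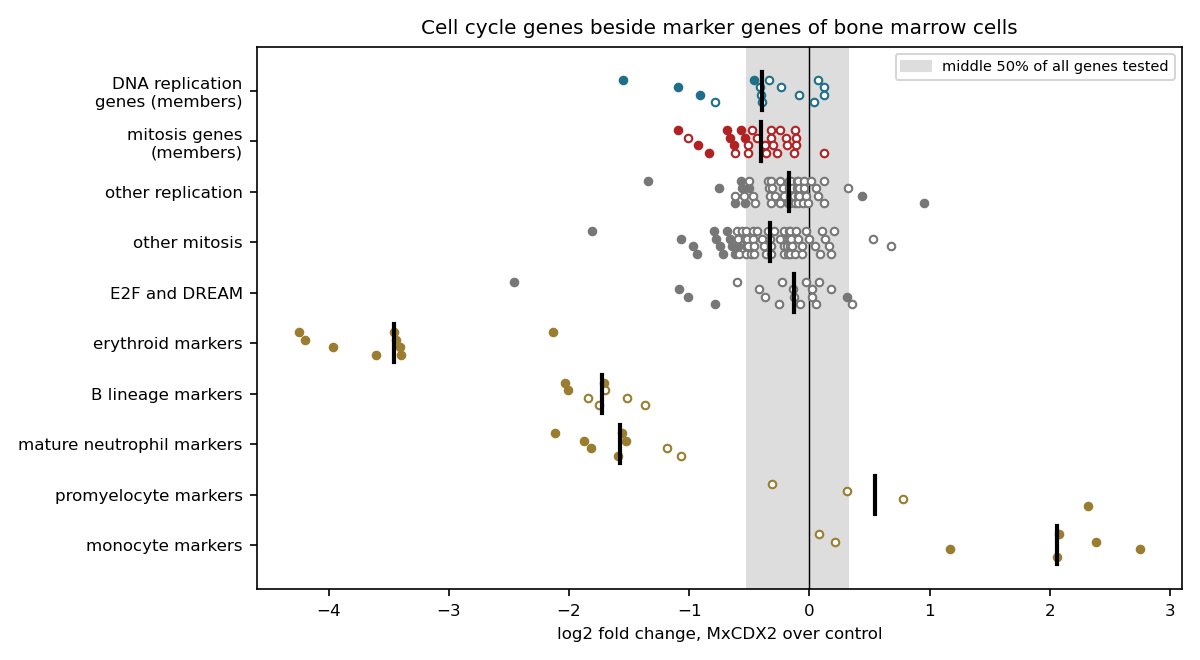
Log2 fold change of *MxCDX2* over control mice (x axis) for every gene of the 2 cell cycle groups, of 3 further lists of the same pathways and of 5 lists of marker genes of bone marrow cells; filled points passed an adjusted p of 0.05, black bars are medians, and the grey band is the middle 50% of all 15980 genes tested (-0.52 to 0.32). The medians of the cell cycle groups (-0.39 and -0.40) lie inside the band, those of erythroid (-3.46) and monocyte markers (2.06) far outside it.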

How the data were processed

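Stranded mRNA libraries were made from the bone marrow RNA of 6 mice. The authors deposited raw read counts per gene that had not been normalized. The submitters' processing notes name bcl2fastq 2.17.1.14, STAR 2.5 and HTSeq 0.6.1 with the mouse genome GRCm38. Reads counted outside genes or as ambiguous, 12.2% to 17.1% per mouse, were left out. Conditions came from the labels, which number the *MxCDX2* mice. Control mice were numbered in accession order, and each library is 1 mouse.

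Counts were analysed with edgeR 4.0.16 in R 4.3.3 (TMM, default filterByExpr, glmQLFit and glmQLFTest), with Benjamini-Hochberg adjustment over 15980 genes and no covariate. A gene was said to fall or rise at an adjusted p below 0.05, and calls with an absolute log2 fold change above 1 as well, the rule of the study's methods, were counted beside it. DESeq2 1.42.0, limma 3.58.1 (voom), other scalings and filters, and each mouse left out in turn were alternatives. The tests were also run on simulated data. Symbols came from GENCODE M21, and lengths for TPM are those of merged exons. Promoters came from RefSeq (GRCm38.p6), where 36 of the 43 genes matched. Python 3.11.15 with scipy 1.17.1, numpy 2.4.6, pandas 2.3.3 and matplotlib 3.10.9 served for tables and figures.

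The members, the further gene lists and the marker lists were chosen with earlier results of these data known. Values per mouse are given, in each group, for the 6 genes with the smallest and the 3 with the largest p and for a fixed set (*Mki67*, *Top2a*, *Pcna*, *Mcm2* to *Mcm7*, *Rrm1*, *Rrm2*, *Cdk1* and the cyclin genes), and of each further list at most the 4 called genes with the smallest p are named. *Orc2* to *Orc5*, *Dut*, *Rbl2*, *Mybl2*, *Elane*, *Racgap1* and *Cep55* were named in addition after their values were seen. With these depths the spread between 3 mice per group, and not counting error, limits the precision. No cell counts or sorted fractions were analysed here.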

Additional observations from a re-analysis of the deposited data

How the results depend on the processing

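The medians of both groups were below 0 under all 13 alternatives, from -0.47 to -0.22 for replication genes and from -0.54 to -0.27 for mitosis genes. With total counts only, the median of all genes shifted to 0.12 (log2), 1 replication gene and 0 mitosis genes passed both thresholds, and *Mcm5* (0.038), *Aurkb* (0.0092), *Ttk* (0.020) and *Top2a* (0.0060) turned positive; relative to that shift they remained below 0. DESeq2 called 2 mitosis genes with both thresholds and 23 of the other mitosis genes lower at the adjusted p alone, by which it called 16.1% of all genes lower. Leaving out 1 mouse at a time gave 1 to 10 replication and 1 to 19 mitosis genes lower at the adjusted p alone, and 1 to 3 and 0 to 3 with both thresholds. The highest of these counts came without control 3 (3 replication genes passed both thresholds without *MxCDX2* mouse 1 as well), and the lowest at the adjusted p alone without *MxCDX2* mouse 3. The other replication genes then gave 2 to 15, the other mitosis genes 3 to 35 and the E2F and DREAM genes 3 to 7, and all genes called with both thresholds 1205 to 2406. With each mouse left out in turn the sign turned in at least 1 fit for 10 genes, whose log2 fold changes ran from -0.062 to 0.14 for *Mcm3*, -0.20 to 0.014 for *Mcm5*, -0.087 to 0.31 for *Cdc45*, -0.27 to 0.063 for *Aurkb*, -0.32 to 0.29 for *Ttk*, -0.30 to 0.090 for *Bub1*, -0.072 to 0.31 for *Bub1b*, -0.37 to 0.0036 for *Kif23*, -0.38 to 0.024 for *Anln* and -0.29 to 0.083 for *Top2a*. None of these genes passed the test in any of the fits in which its sign turned. When the promoter search was limited to the 150 bases before the start, 29.2% of the mitosis promoters held a CHR element. The shares were 8.33% of replication promoters and 9.70% of all promoters. An E2F site was then in 25% of replication promoters, where the whole window gave 41.7%, in 4.17% of mitosis promoters and in 1.24% of all. In 9 of the 19 mitosis promoters with the element every match began after the start. Causes of the shifts were not tested. No paired analysis was possible because the labels give no mouse numbers for the controls. The 3 mice per group and the single animal of each control genotype limit what these data can show, and the spread that comes from control genotype cannot be told apart from that between mice.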
